A study of Rattus norvegicus with 6 samples.

Results

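The genes described here build and run the mitotic spindle, the kinetochores and cytokinesis. A list of 56 gene names was matched to the gene names of the deposited count table, and 55 of them had a row among its 34156 genes, while Ccnb2 was not analysed here. The libraries came from rat RA-FLS, the fibroblast-like synoviocytes of rheumatoid arthritis, which line the joint and form the invasive tissue of the disease. In the TNF-α group, 3 libraries were made from wild type cells of passage 4 given 10 ng/mL TNF-α, a cytokine that drives joint inflammation. In the TNF-α+EMO group, 3 libraries were made from the same kind of cells given 10 ng/mL TNF-α together with 80 μmol/L emodin (EMO), an anthraquinone of rhubarb root. The labels give day 5 for all 6 libraries, whereas the methods of the study give a shorter incubation. The RA-FLS were bought from 1 supplier, no untreated cells and no cells given EMO alone were compared, and the labels name no separate animals, so that p-values measure the spread between these libraries only.

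Cells entering mitosis switch on cyclin-dependent kinase, condense their chromosomes, and attach each chromosome by its kinetochores to the microtubules of the spindle. A checkpoint at the kinetochores holds back the anaphase-promoting complex until every chromosome is attached, after which the chromatids part and a contractile ring divides the cell. Most of the genes for these proteins are transcribed late in the cell cycle and are silent in resting cells, so that their RNA is widely used as a sign of dividing cells. In bulk RNA a smaller share of dividing cells and less RNA per dividing cell cannot be told apart.

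Promoters of late cell cycle genes commonly carry a CCAAT box, the site of the factor NF-Y, and a cell cycle genes homology region (CHR), the site through which the MuvB complexes act. For 7 members the 120 bases before the start site are shown to let the letters be compared between genes with a large, a smaller and no called change. They are reference sequences from RefSeq on build GRCr8, read 5′ to 3′ on the strand of the gene, and capitals mark CHR letters (TTTGAA or TTCGAA, or TTCAAA where read on the other strand) and CCAAT letters (CCAAT, or ATTGG on the other strand). The windows are chr10:84473094-84473213 on the minus strand for Top2a, chr5:137255800-137255919 on the minus strand for Cdc20 and chr10:28406327-28406446 on the minus strand for Pttg1. Those of Prc1 and Hmmr are chr1:143659361-143659480 on the plus strand and chr10:25665216-25665335 on the minus strand. Those of Cdc25b and Bub3 are chr3:138860053-138860172 and chr1:195760412-195760531, both on the plus strand.
Top2a: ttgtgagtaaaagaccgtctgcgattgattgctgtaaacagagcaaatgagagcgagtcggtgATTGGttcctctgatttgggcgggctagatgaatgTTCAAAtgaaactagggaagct
Cdc20: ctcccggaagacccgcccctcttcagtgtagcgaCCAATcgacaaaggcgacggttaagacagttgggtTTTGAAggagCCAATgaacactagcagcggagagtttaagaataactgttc
Pttg1: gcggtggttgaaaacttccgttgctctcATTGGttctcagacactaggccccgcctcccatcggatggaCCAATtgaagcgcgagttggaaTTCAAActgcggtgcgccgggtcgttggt
Prc1: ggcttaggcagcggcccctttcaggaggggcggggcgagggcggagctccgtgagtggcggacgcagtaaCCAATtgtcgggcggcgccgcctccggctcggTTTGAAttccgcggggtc
Hmmr: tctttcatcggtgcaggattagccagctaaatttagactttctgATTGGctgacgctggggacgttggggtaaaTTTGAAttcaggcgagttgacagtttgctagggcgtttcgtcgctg
Cdc25b: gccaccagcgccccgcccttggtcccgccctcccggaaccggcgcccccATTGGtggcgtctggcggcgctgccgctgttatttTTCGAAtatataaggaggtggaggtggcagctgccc
Bub3: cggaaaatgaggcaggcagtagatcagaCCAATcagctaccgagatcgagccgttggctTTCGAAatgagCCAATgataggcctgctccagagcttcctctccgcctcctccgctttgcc
These 7 were picked among the 28 of 48 members (58.3%) whose promoters hold both motifs, so that all 7 hold the pair by choice. The shares over all promoters follow the expression results.

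Total counts were 16813322 to 17794455 per library. After a filter for 10 counts or more in at least 3 libraries, 13614 genes were tested, of which 3783 were lower and 2659 higher in the TNF-α+EMO group (edgeR quasi-likelihood test, Benjamini-Hochberg adjusted p under 0.05 and absolute log2 fold change over 1), and the median log2 fold change was -0.01. Of 11 fibroblast markers with a row, 9 were tested. With EMO 7 were lower, 1 (Dcn) was higher and 1 (Vim) was not called. Summed normalized counts of the 11 were 270626 to 301338 in the TNF-α libraries against 36544 to 39249 with EMO. In the TNF-α group Col1a1, Fn1 and Vim were abundant (means 111181, 81107 and 61464). The synovial markers Thy1 and Prg4 were at 10 counts or fewer in every library and were not tested. Of 9 macrophage and leukocyte markers, 6, Ptprc and Cd3e among them, were at 10 counts or fewer in every library, and the other 3 were tested. Cd14 was lower (mean 1093 to 510 normalized counts) and Itgam was higher (0.327 to 12.3). Cd68 went from 153 to 256 (log2 fold change 0.75, adjusted p = 0.00024) and did not reach the fold threshold. The Itgam locus overlaps Itgax on the same strand, a gene outside the marker list. Itgax reached 505 counts in the TNF-α libraries and 1763 with EMO, and its share in the Itgam value was not tested. The sum over the listed macrophage and leukocyte markers, which leaves out Itgax, was mostly Cd14. It was 1206 to 1310 in the TNF-α libraries against 746 to 819 with EMO. Endothelial markers summed to 69.2 to 76.6 against 13.2 to 21.7, with Kdr at 0 throughout. Epithelial markers summed to 9942 to 10808 against 1968 to 2304, nearly all of it Krt8, with Epcam and Krt5 at 0. The Krt5 locus overlaps other genes, keratins among them, with up to 1151 counts in the TNF-α libraries and 2169 with EMO. Whether reads of Krt5 were lost to this overlap was not tested. The part of these marker changes in the results on mitotic genes was not tested.

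Nearly all of these mitotic genes were lower with EMO. Of the 55 members, all of which passed the filter on low counts, 52 were called lower (94.5%, against a background of 27.8% of all genes tested), 0 were called higher (19.5% of all genes tested) and 3 were not called. The 3 were Bub3, Cdc25b and Cenpk. DESeq2 likewise called 52 lower and 0 higher, and 0 were higher at an unadjusted p under 0.05 in edgeR. With no threshold on the fold, 54 members were lower at an adjusted p under 0.05 (41.4% of all genes). The median log2 fold change of the members was -4.97, with a range of -9.48 to 0.06. An absolute log2 fold change over 2 was passed by 49 members (16.6% of all genes), and 35 lay under -4 (7.18%). In 54 members the groups did not overlap, all with the lower counts in the TNF-α+EMO libraries (42.5% of all genes, and 40.3% with the higher counts). In 10 of the members at least 1 of the TNF-α+EMO libraries held fewer than 10 counts, so that these members passed the filter through the TNF-α libraries.

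Summed over the 55 members, normalized counts (counts scaled by the effective library size) were 89854, 93051 and 96050 in the TNF-α libraries against 7443, 7227 and 6835 with EMO. The sum was 13.0-fold lower with EMO, at 92985 ± 3099 against 7168 ± 308 (SD, n = 3 each), and 16.6-fold lower without Bub3. As a share of all counts, the members took 0.563% ± 0.023 of a TNF-α library and 0.0401% ± 0.00219 of a TNF-α+EMO library. The make-up of the sum differed too. In the TNF-α group Top2a, Mki67, Smc4 and Kif20a gave 23.9% of it and Bub3 gave 1.72%, while in the TNF-α+EMO group Bub3, Smc2, Cdc25b and Smc4 gave 46.3% and Bub3 alone 23.3%.

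**Figure D1:**
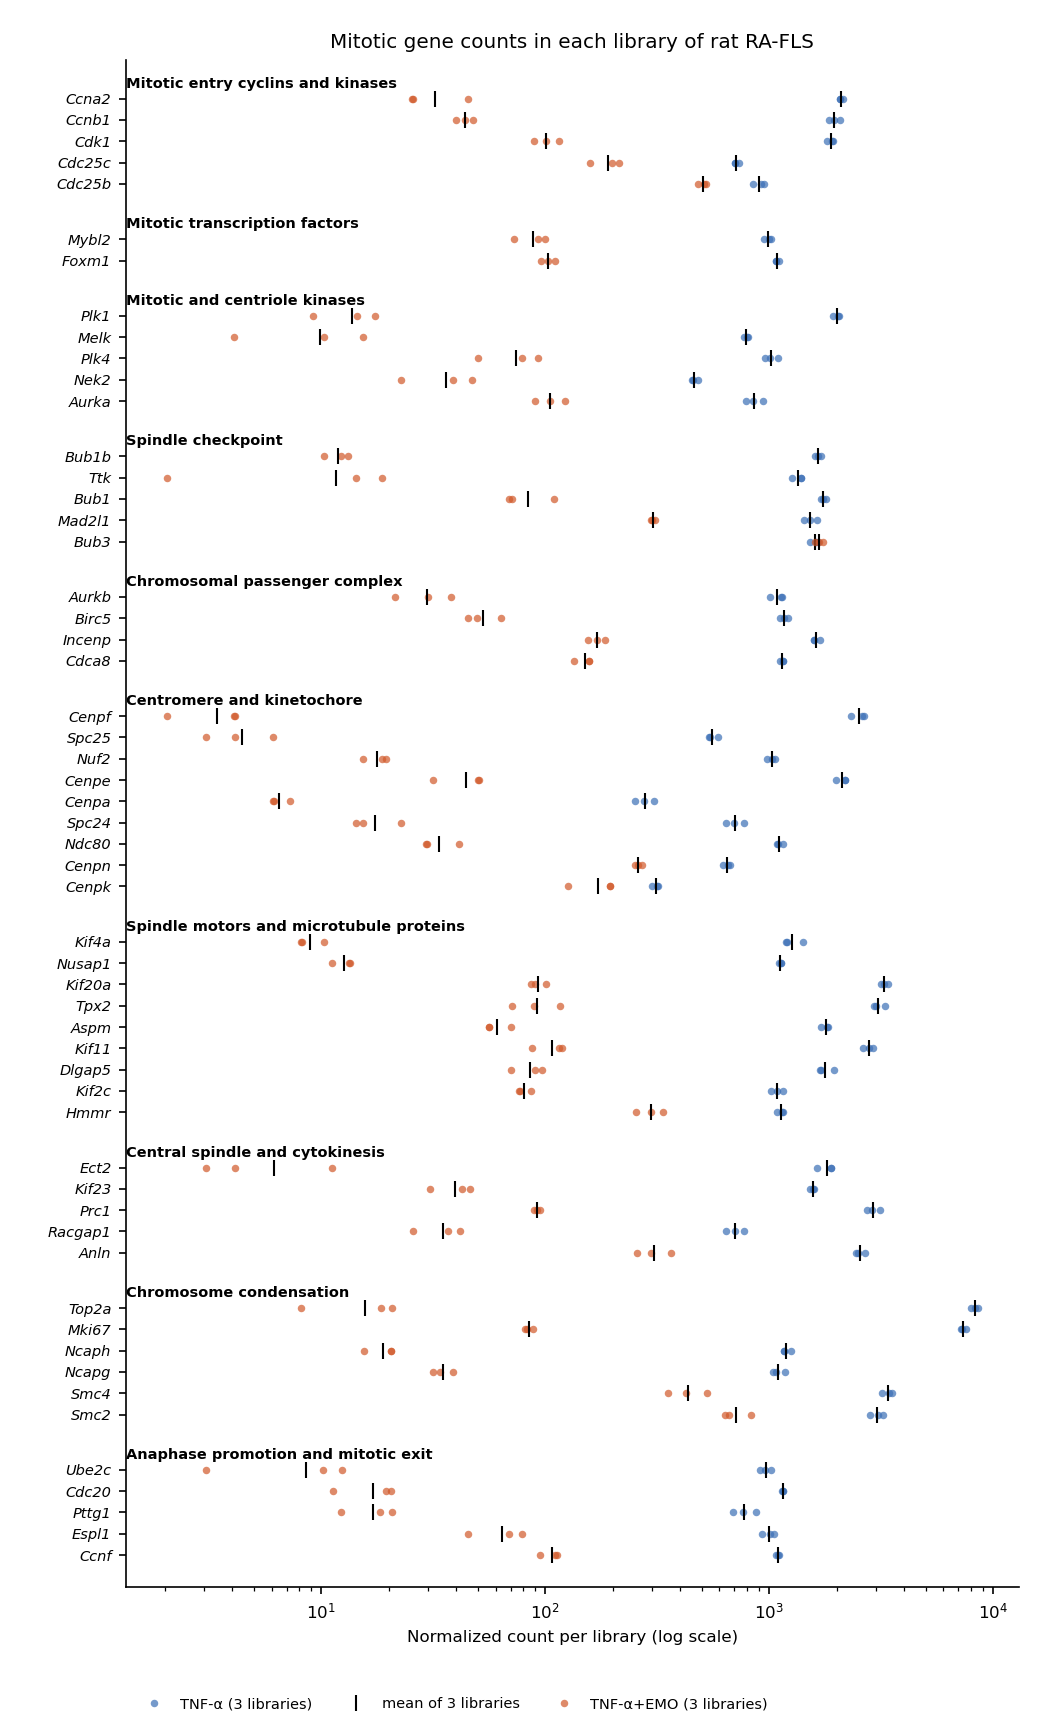
Normalized count per library (x axis, log scale) of each of the 55 mitotic genes, ordered by role, with a point for each of the 3 TNF-α and 3 TNF-α+EMO libraries and a bar at each group mean. The 2 groups of points are apart for every gene except Bub3, where TNF-α libraries at 1520 to 1647 overlap EMO libraries at 1599 to 1734.

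Entry into mitosis is driven by Cdk1 with cyclins A and B, and the phosphatases of the Cdc25 family remove the inhibiting phosphate from the kinase. Of the 5 genes measured here, 4 were lower, with a median log2 fold change of -4.21. Ccna2, cyclin A, counted 2067, 2077 and 2138 in the TNF-α libraries against 25.8, 45.0 and 25.5 with EMO. Every TNF-α library was far above every TNF-α+EMO library, and the log2 fold change of -6.02 (SE 0.15, adjusted p = 5.0e-11) was the largest decrease of the group. Its locus overlaps Exosc9 on the other strand, which reached 892 counts in the TNF-α+EMO libraries, and the strand setting of the counting is not given in the sources used here. Ccnb1, cyclin B, fell to 2.24% of its TNF-α level (1952 ± 118 to 43.7 ± 3.77), and Cdk1 itself to 5.38% (1883 ± 57.2 to 101 ± 13.0).

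The phosphatases kept a larger share of their TNF-α level than the cyclins did. Cdc25c fell from 712 ± 17.0 to 190 ± 28.8 normalized counts, which left 26.7% of the TNF-α level (log2 fold change -1.91, SE 0.11, adjusted p = 3.8e-08). Cdc25b counted 915, 951 and 843 in the TNF-α libraries against 483, 511 and 523 in the TNF-α+EMO libraries. These groups did not overlap and the adjusted p was 2.7e-06, but the log2 fold change of -0.84 (SE 0.08) stayed inside the fold threshold, so Cdc25b was not called. The 2 transcription factors of the late cell cycle genes both fell. Foxm1, a forkhead factor, counted 1072, 1078 and 1102 against 103, 96.2 and 111 (log2 fold change -3.39, SE 0.09, adjusted p = 7.9e-11). Mybl2, the Myb factor that joins MuvB, counted 952, 1020 and 994 against 92.8, 100 and 72.3 (log2 fold change -3.48, SE 0.12, adjusted p = 4.1e-10). Neither factor overlapped between the groups, and 9.55% of the TNF-α level was left for Foxm1 and 8.95% for Mybl2.

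The 5 mitotic and centriole kinases were all lower, with a median log2 fold change of -3.79. Plk1, the polo-like kinase that acts from centrosome maturation to cytokinesis, counted 2042, 1923 and 2034 in the TNF-α libraries against 14.4, 17.4 and 9.17 with EMO. All TNF-α libraries lay above all TNF-α+EMO libraries, with 0.683% of the TNF-α level left (log2 fold change -7.18, SE 0.14, adjusted p = 8.9e-12). Aurka, the Aurora kinase of the spindle poles, had the smallest decrease of the 5, from 784, 848 and 942 to 89.7, 122 and 105 (log2 fold change -3.02, SE 0.13, adjusted p = 2.0e-09). Its partner and activator on the spindle, Tpx2, fell further, from 3066 ± 185 to 91.9 ± 22.3 (log2 fold change -5.06, SE 0.13). Plk4, the kinase that starts centriole duplication, was at 7.24% of its TNF-α level, and Nek2, which parts the centrosomes, at 7.80%. Melk fell to 1.25%, from 791 ± 15.9 to 9.91 ± 5.65. The Plk4 locus overlaps Mfsd8 on the other strand, which reached 376 counts with EMO.

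In the spindle checkpoint 4 of 5 genes were lower, and the log2 fold changes ran from -7.10 to 0.06. Bub1b, which encodes the checkpoint protein BubR1, counted 1606, 1658 and 1702 in the TNF-α libraries against 10.3, 12.3 and 13.2 with EMO. The groups were far apart, and 0.722% of the TNF-α level was left (log2 fold change -7.10, SE 0.12, adjusted p = 3.7e-12). Ttk, the kinase that starts checkpoint signaling at unattached kinetochores, fell to 0.867% (1343 ± 73.1 to 11.6 ± 8.58), with TNF-α+EMO replicate 3 at 2.04 against 18.6 and 14.3 in the other libraries of that group. Bub1, the kinase that recruits the other checkpoint proteins, fell to 4.78%. Mad2l1, the inhibitor of Cdc20, kept 19.7% (1528 ± 97.9 to 302 ± 6.61, log2 fold change -2.34, SE 0.08).

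Bub3, the WD-repeat protein that carries Bub1 and BubR1 to the kinetochore, was the exception among the 55 genes (chromosome 1, 203524426 to 203557337 on Rnor_6.0). It counted 1621, 1520 and 1647 in the TNF-α libraries against 1599, 1677 and 1734 with EMO, so that the groups overlapped. Its log2 fold change was 0.06 (SE 0.06, adjusted p = 0.37), and the sign turned to -0.05 with scaling by library totals alone. That scaling shifted the median over all genes by -0.11. Of the 4 checkpoint proteins that meet in the mitotic checkpoint complex, the RNA of Bub1b was thus at 0.722%, of Cdc20 at 1.48%, of Mad2l1 at 19.7% and of Bub3 at 105% of the TNF-α level.

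The chromosomal passenger complex, which corrects faulty attachments and later marks the division plane, was lower in all 4 subunits (median log2 fold change -3.86). Aurkb, its kinase, counted 1137, 1005 and 1125 in the TNF-α libraries against 29.9, 37.9 and 21.4 with EMO. The libraries of the groups did not meet, and the log2 fold change of -5.19 (SE 0.15, adjusted p = 1.4e-10) was the largest decrease of the complex. Incenp, the scaffold, fell from 1583, 1578 and 1685 to 156, 185 and 170 (log2 fold change -3.24, SE 0.09, adjusted p = 9.4e-11). Cdca8, which encodes borealin, fell from 1115, 1155 and 1150 to 135, 157 and 157 (log2 fold change -2.93, SE 0.09, adjusted p = 2.2e-10). Birc5, which encodes survivin, was at 4.50% of its TNF-α level, so that the kinase and survivin kept a smaller share than the scaffold (10.5%) and borealin (13.1%).

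Of 9 centromere and kinetochore genes 8 were lower, with a median log2 fold change of -5.40. Cenpf, a large protein of the outer kinetochore (chromosome 13, 108132499 to 108178609 on build Rnor_6.0), showed the largest decrease of all members. It counted 2308, 2603 and 2659 in the TNF-α libraries against 4.13, 2.05 and 4.07 with EMO. This was a 739-fold difference of the means with no overlap (log2 fold change -9.48, SE 0.16, adjusted p = 3.6e-12). The motor Cenpe, which carries chromosomes to the spindle equator, fell to 2.09% (2108 ± 110 to 44.1 ± 10.7). Cenpa, the histone variant that defines the centromere, had the lowest counts of all members in the TNF-α group and fell from 279 ± 27.2 to 6.49 ± 0.632 normalized counts.

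The 4 subunits of the Ndc80 complex, the main coupler of kinetochores to microtubules, all fell. Ndc80 kept 3.02% of its TNF-α level (1110 ± 40.8 to 33.5 ± 6.73), Nuf2 1.73% (1027 ± 42.6 to 17.8 ± 2.19), Spc24 2.48% (703 ± 66.0 to 17.4 ± 4.58) and Spc25 0.794% (558 ± 28.6 to 4.44 ± 1.54). The 2 members of the inner kinetochore network had smaller log2 fold changes. This does not hold for the network as a whole. Its genes outside the members ran from -6.87 for Cenpw and -6.69 for Cenpt to 0.24 for Cenpo, which was not called. Cenpn, which binds the centromeric nucleosome, kept 40.0% (651 ± 23.0 to 260 ± 9.62, log2 fold change -1.32, SE 0.08, adjusted p = 7.1e-08). Cenpk counted 300, 314 and 318 against 195, 195 and 126, which did not overlap, and was not called (log2 fold change -0.85, SE 0.16, adjusted p = 5.9e-04). TNF-α+EMO replicate 3 was the lowest of these, and without it the log2 fold change was -0.65. Both loci overlap genes on the other strand, Cmc2 for Cenpn with up to 198 counts with EMO and Ppwd1 for Cenpk with up to 387, and the share of their reads in the values of Cenpn and Cenpk was not tested.

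All 9 genes of spindle motors and microtubule proteins were lower (median log2 fold change -4.88). Kif20a, a kinesin of the central spindle, had the highest counts of these, at 3166, 3247 and 3400 in the TNF-α libraries against 86.6, 101 and 89.6 with EMO. The groups lay far apart (log2 fold change -5.14, SE 0.08, adjusted p = 3.6e-12), and the locus overlaps Cdc23 on the other strand, which reached 507 counts with EMO. Kif4a, a chromokinesin, had the largest decrease, from 1184, 1206 and 1414 to 10.3, 8.19 and 8.15 (log2 fold change -7.14, SE 0.15, adjusted p = 1.6e-11). Hmmr, a spindle protein that is also known as a hyaluronan receptor, had the smallest. It counted 1082, 1138 and 1158 against 336, 297 and 255, again without overlap, and kept 26.3% of its level (log2 fold change -1.93, SE 0.10, adjusted p = 1.7e-08). Kif11, the motor that pushes the spindle poles apart, fell from 2781 ± 145 to 107 ± 16.9, and Kif2c, which shortens microtubules at the centromere, from 1088 ± 66.2 to 80.2 ± 5.51. Nusap1, which bundles microtubules, kept 1.13%, the pole protein Aspm 3.40% and Dlgap5, which stabilizes kinetochore fibers, 4.82%.

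The 5 genes of the central spindle and cytokinesis were lower, with a median log2 fold change of -4.99. Prc1, which bundles the antiparallel microtubules of the central spindle, counted 2743, 2883 and 3134 in the TNF-α libraries against 88.7, 92.1 and 94.7 with EMO. The groups were clearly apart (log2 fold change -4.99, SE 0.09, adjusted p = 5.3e-12). Ect2, the exchange factor that activates RhoA at the cell equator, fell from 1642, 1879 and 1893 to 4.13, 3.07 and 11.2, a 294-fold difference of the means (log2 fold change -8.17, SE 0.21, adjusted p = 7.0e-11). The centralspindlin subunits that recruit it, Kif23 and Racgap1, fell to 2.54% and 4.95% of their TNF-α level. Anln, the anillin scaffold of the contractile ring, moved least, from 2485, 2442 and 2668 to 363, 298 and 256 (log2 fold change -3.05, SE 0.11, adjusted p = 9.8e-10).

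Chromosome condensation was represented by 6 genes, all lower, with a median log2 fold change of -5.48. Top2a, the topoisomerase that untangles sister chromatids (chromosome 10, 86901007 to 86932154 on Rnor_6.0), had the highest counts of all members in the TNF-α group, at 7923, 8549 and 8299. With EMO it counted 20.6, 18.4 and 8.15, so that the groups lay far apart, and 0.191% of the TNF-α level was left (log2 fold change -9.03, SE 0.15, adjusted p = 4.4e-12). Mki67, the proliferation marker that coats mitotic chromosomes, fell from 7332 ± 186 to 84.3 ± 3.78, or to 1.15%. The condensin subunits fell to unequal levels. The ATPase Smc2 counted 2829, 3065 and 3213 against 830, 661 and 638 and kept 23.4% (log2 fold change -2.10, SE 0.10, adjusted p = 8.2e-09), and its partner Smc4 kept 12.8%. The non-ATPase subunits of condensin I, Ncapg and Ncaph, kept 3.18% and 1.57%. Smc2 and Smc4 are shared by both condensins.

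The 5 genes of anaphase promotion and mitotic exit had a median log2 fold change of -5.49, and all were lower. Ube2c, the ubiquitin-conjugating enzyme of the anaphase-promoting complex, counted 958, 914 and 1021 in the TNF-α libraries against 12.4, 10.2 and 3.06 with EMO (log2 fold change -6.80, SE 0.21, adjusted p = 2.6e-10). Cdc20, the activator of that complex, counted 1143, 1154 and 1151 against 11.3, 19.4 and 20.4 (log2 fold change -6.06, SE 0.14, adjusted p = 3.6e-11). For both genes all the TNF-α libraries were above all the TNF-α+EMO libraries. Pttg1, the securin that is destroyed at anaphase, and Espl1, the separase it holds back, fell to 2.21% and 6.44%. Ccnf, the cyclin of a ubiquitin ligase, moved least, from 1100, 1105 and 1077 to 113, 95.2 and 111 (log2 fold change -3.36, SE 0.10, adjusted p = 1.1e-10).

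**Figure D2:**
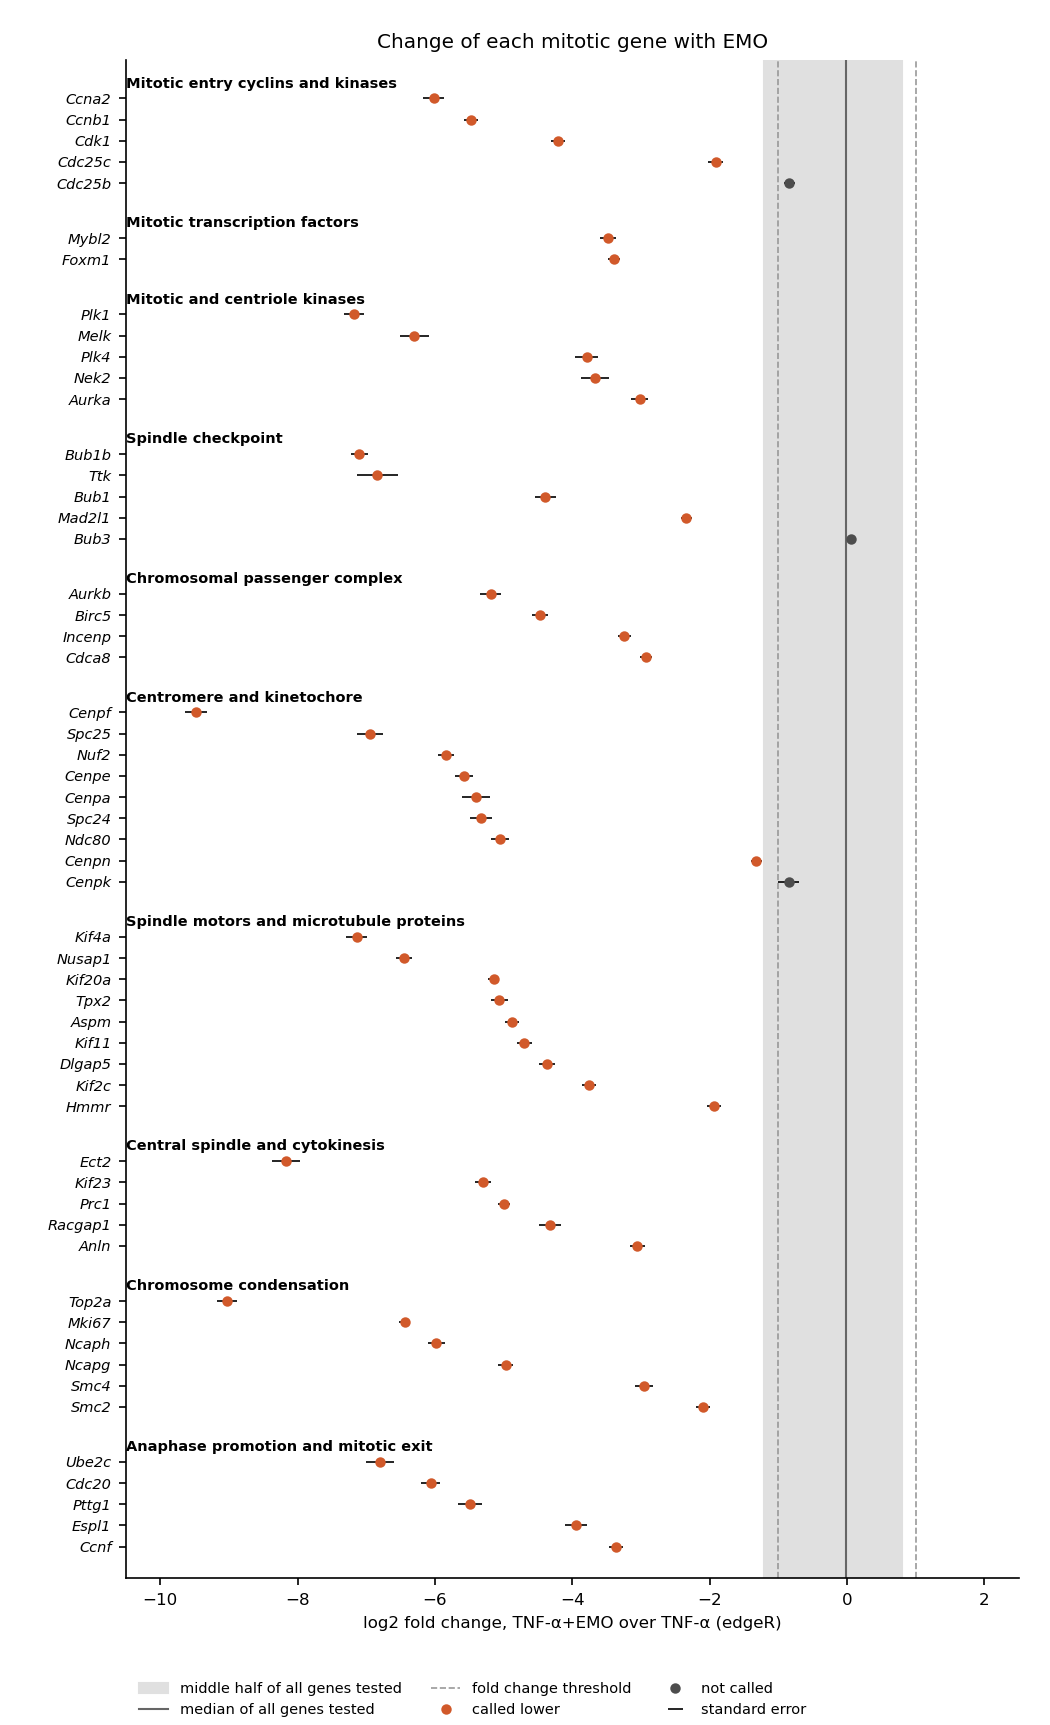
Log2 fold change of TNF-α+EMO over TNF-α (x axis) for each of the 55 mitotic genes by role, with bars of 1 standard error, a grey band from the lower to the upper quartile of all 13614 genes tested (-1.21 to 0.80) and dashed lines at the fold threshold. Called genes lie between -9.48 and -1.32, and the uncalled genes Cdc25b, Cenpk and Bub3 lie inside the grey band.

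The share of the TNF-α level that was left ordered the members across roles. Under 1% was left for 9 members, namely Cenpf, Top2a, Ect2, Plk1, Kif4a, Bub1b, Spc25, Ttk and Ube2c, which come from 7 of the 10 roles. From 1% to 5% was left for 25 members and from 5% to 20% for 14. Above 20% stood 7 members, Smc2, Hmmr, Cdc25c, Cenpn, Cenpk, Cdc25b and Bub3. The median over the 55 members was 3.18%.

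Counts scaled by depth and deposited gene length (CPM per kilobase) allow a rough comparison of levels between genes. The order of genes depends on that length, and whether it matches the transcripts made in these cells was not tested. On this scale the median member was at 24.4 in the TNF-α group and at 1.17 in the TNF-α+EMO group. In the TNF-α group the highest levels were those of Top2a at 86.0, Birc5 at 77.8, Cdk1 at 77.7 and Ccnb1 at 70.8, and the lowest that of Cenpa at 6.44. With EMO the order was led by Bub3 at 35.7, followed by Mad2l1 at 12.3 and Cdc25b at 10.5, while Top2a stood at 0.164 and Cenpf at 0.0197. Within the Ndc80 complex the length-scaled levels were 18.9 for Ndc80, 31.6 for Nuf2, 47.3 for Spc24 and 25.9 for Spc25 in the TNF-α group, and 0.569, 0.547, 1.17 and 0.206 in the same order with EMO.

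**Figure D3:**
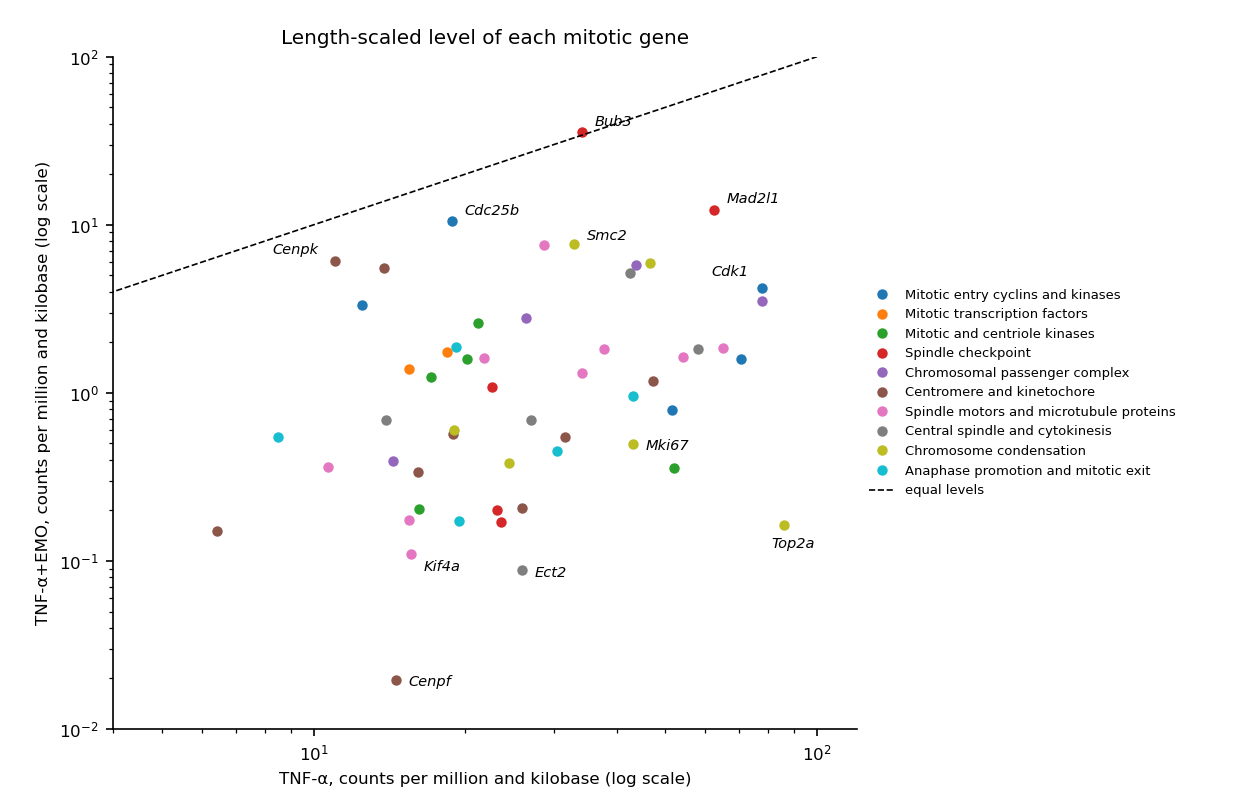
Mean length-scaled level of each mitotic gene in the TNF-α group (x axis) against the TNF-α+EMO group (y axis), both in CPM per kilobase on log scales, colored by role, with a dashed line at equal levels. Bub3 lies next to the line, whereas Top2a, highest in the TNF-α group at 86.0, lies at 0.164 and Cenpf at 0.0197 with EMO.

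Replicates within a group were close in the TNF-α libraries and more spread, at the much lower counts, in the TNF-α+EMO libraries. The median coefficient of variation over the members was 4.21% and 16.2%, and it was highest for Pttg1 (11.8%) and Ttk (73.7%), respectively. With EMO 36 members had fewer than 100 counts in every library, and 4 had 10 or fewer, so that counting error alone is large for these. TNF-α+EMO replicate 3 was the lowest of its group for 26 of the 55 members, with a median log2 deviation of -0.08 from the group, and without it the number of members called lower was 52. This library also stood apart over the tested genes as a whole. The mean squared difference in counts per gene, relative to counting error, was 25.2 against replicate 1 and 16.1 against replicate 2. Between those 2 it was 6.63, and between TNF-α libraries 4.72 to 5.85. In the TNF-α group replicate 1 was the lowest for 35 members and replicate 3 the highest for 36, with median log2 deviations of -0.04 and 0.04.

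Further genes of the same processes were examined in lists of other cell division genes, and the counts below can be read against the backgrounds of 27.8% lower and 19.5% higher. Of 32 other kinetochore and centromere genes, 25 were lower and 1 was higher (median log2 fold change -2.33). The gene with the highest mean count, Zwint, which anchors the checkpoint complex RZZ at the kinetochore, was the gene that rose. It counted 1786, 1660 and 1740 in the TNF-α libraries against 9270, 9192 and 8173 with EMO, with no overlap (log2 fold change 2.36, SE 0.07, adjusted p = 1.5e-10). At the other end stood Sgo2, the shugoshin that protects centromeric cohesion, with 690 counts summed over the TNF-α libraries against 5 with EMO, a 132-fold difference (95% exact interval for counting error 56.1 to 406.5). Its locus overlaps Kctd18.

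Among 30 rows of other spindle and cytokinesis genes (Spag5 has 2), 24 were lower and 2 higher (median log2 fold change -3.53). Numa1, which gathers microtubules at the spindle poles and had the highest mean count, fell from 6744, 6804 and 6738 to 1753, 1767 and 1767 (log2 fold change -1.94, SE 0.05, adjusted p = 1.0e-10). Pimreg fell the most, from 1872 summed counts to 2, or 892-fold (95% exact interval 247 to 7375). The 2 that rose were Haus8, a subunit of the augmin complex that branches spindle microtubules, from 275, 249 and 291 to 1581, 1757 and 2083 (log2 fold change 2.73, SE 0.11, adjusted p = 2.2e-09), and Gtse1, from 1892, 1778 and 1960 to 6668, 6484 and 6301 (log2 fold change 1.79, SE 0.06, adjusted p = 4.7e-10).

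Of 16 other condensin and cohesin genes, 8 were lower and 0 higher (also with DESeq2), and the median over the list was -0.94. At an unadjusted p under 0.05, 1 of the 16 (Wapl, log2 fold change 0.66) was higher in edgeR. Rad21, the cohesin subunit cut by separase, had the highest mean count (log2 fold change -1.46, SE 0.07), Esco2, the cohesin acetyltransferase, fell the most (-3.97, SE 0.14), and Smc3, the cohesin ATPase, the least of those called (-1.31, SE 0.09). Of the condensin subunits in this list, Ncapd2 had a log2 fold change of -3.04, Ncapg2 of -2.57 and Ncapd3 of -1.94, while Ncaph2 at -0.43 was not called. The Ncaph2 locus overlaps Tymp on the other strand, which reached 1612 counts in the TNF-α libraries and 1453 with EMO. The share of Tymp reads in the Ncaph2 value was not tested.

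For the anaphase-promoting complex the shares of calls were near those over all genes tested. Of 17 subunits and regulators, 4 were lower (23.5%: Fbxo5, Anapc1, Cdc26 and Cdc27) and 3 higher (17.6%: Anapc16, Anapc13 and Cdc16), and the median log2 fold change was -0.22. Fbxo5, the inhibitor Emi1, fell the most (-2.23, SE 0.11), Anapc16 rose the most (1.59, SE 0.13), and the subunit with the highest mean count, Anapc5, had a log2 fold change of -0.54 (SE 0.05) and was not called. Of 11 mitotic entry regulators 3 were lower (27.3%, near the 27.8% over all genes tested) and 1 higher (9.09%, against 19.5%). Their median was -0.29. Mastl, the Greatwall kinase, fell to a log2 fold change of -5.35 (SE 0.16), Bora, the activator of Plk1, to -2.13 (SE 0.15) and Wee1, the kinase that inhibits Cdk1, to -1.18 (SE 0.09). Ccnh, the cyclin of the kinase that activates Cdk1, rose (1.72, SE 0.08), and Ensa, the substrate of Greatwall and the gene with the highest mean count, was at 0.08 (SE 0.06) and not called.

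The regulators of these promoters were examined as a list of MuvB, E2F and pocket protein genes, of which 9 of 17 were lower and 2 higher (median log2 fold change -1.11). E2f8, a repressor of the E2F family, fell the most (-6.66, SE 0.28), while Rb1, the retinoblastoma protein, which overlaps Lpar6, rose from 242, 250 and 251 to 1041, 962 and 763 (1.89, SE 0.12, adjusted p = 5.6e-08) and Lin37, a subunit of MuvB, rose by 1.54 (SE 0.11). The other pocket protein genes Rbl1 (-1.8, SE 0.15) and Rbl2 (-1.11, SE 0.09) were lower, as was the MuvB gene Lin9 (-1.86, SE 0.14). The MuvB genes Lin52 (0.96, SE 0.18) and Lin54 (0.19, SE 0.1) were not called. Rbbp4, with the highest mean count, was at 0.54 (SE 0.06) and not called. Of 28 S phase genes, 22 were lower and 0 higher (also with DESeq2, and 0 at an unadjusted p under 0.05 in edgeR), and the median log2 fold change was -2.34. Cdc6, which loads the replicative helicase, fell the most (-7.76, SE 0.19), the primase Prim1 the least of those called (-1.03, SE 0.07), and Mcm2, with the highest mean count, was at -0.83 (SE 0.06) and not called.

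**Figure D4:**
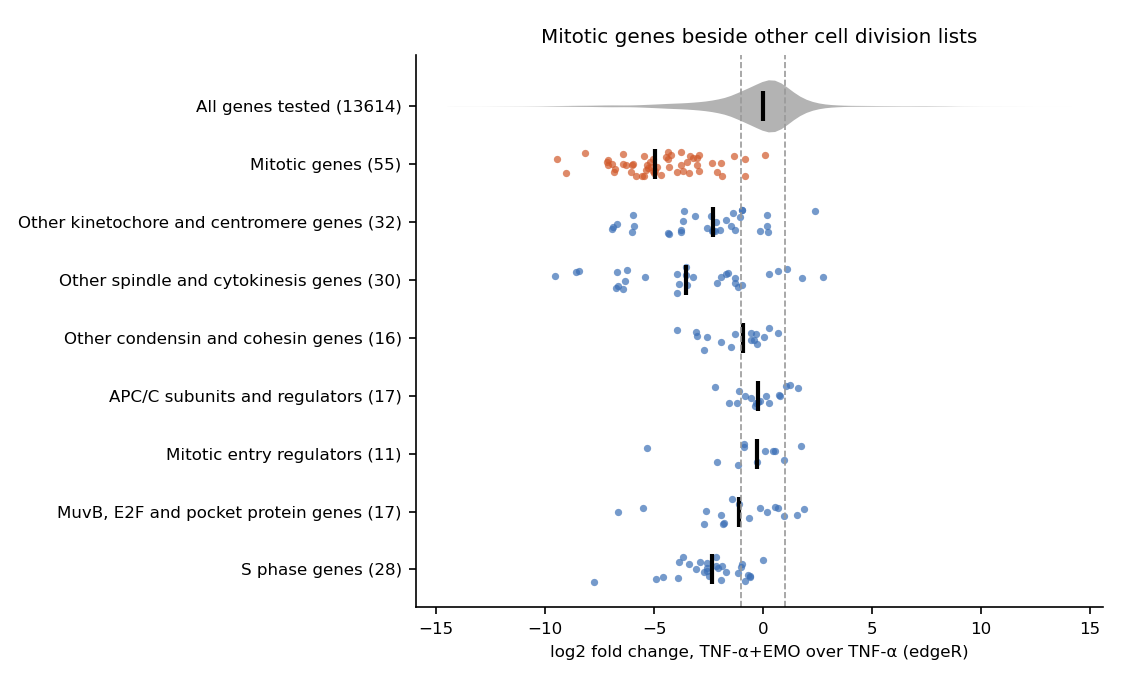
Log2 fold change of TNF-α+EMO over TNF-α (x axis) for all 13614 genes tested (grey outline), the 55 mitotic genes and 7 lists of other cell division genes, with a point for each gene, a bar at each median and dashed lines at the fold threshold. The medians lie at -4.97 for the mitotic genes, between -3.53 and -0.22 for the other lists and at -0.01 for all genes.

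Promoter windows of 300 bases, from 250 before to 50 after the start site, were found in the RefSeq table for 48 of the 55 members. Letters were searched on both strands. CHR letters stood in 34 of the 48 windows (70.8%), against 13.5% of the windows of 9200 tested genes and 19.7% of all 33469 windows. CCAAT letters stood in 36 (75.0%, against 38.5% and 37.5%), and letters like an E2F site (TTCCCGC or TTCGCGC, and likewise TTGCCGC or TTGGCGC) in 10 (20.8%, against 17.9% and 9.52%). CHR and CCAAT letters were together in 28 members (58.3%, against 5.73% and 7.95%). In all 28 a CCAAT stood upstream of a CHR. The distance from the first base of the nearest such CCAAT to that of the CHR had a median of 33.0 bases (range 9 to 205). Where a member held several CHR matches the shortest distance was taken, which for Top2a was 9 bases, outside the bases printed above. Order and distance were not measured in the promoters of other genes.

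Over the 28 members the distance from CCAAT to CHR ranged from 9 to 205 bases, a spread that the 7 picked windows do not show. Within the bases printed above, Top2a, Cdc20, Cdc25b and Bub3 hold such a pair at distances of 35, 35, 35 and 31 bases, Prc1 at 32, Hmmr at 30 and Pttg1 at 22. The log2 fold changes of these genes run from -9.03 for Top2a over -6.06, -5.49, -4.99 and -1.93 for Cdc20, Pttg1, Prc1 and Hmmr to -0.84 for Cdc25b and 0.06 for Bub3. The members with CHR letters had a median log2 fold change of -4.98 and the 14 without of -4.54. For CCAAT the medians were -4.98 with and -4.09 without, and for the E2F-like letters -4.29 with and -4.98 without. Among genes that are not members, 32.5% of the 499 with both CHR and CCAAT letters were called lower, against 26.4% of those without the pair. For CHR letters these shares were 29.8% with and 26.3% without. The other motifs went the other way, with 25.8% against 27.3% for CCAAT and 25.4% against 27.0% for the E2F-like letters. A match of letters is a description of the sequence and shows no binding.

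**Figure D5:**
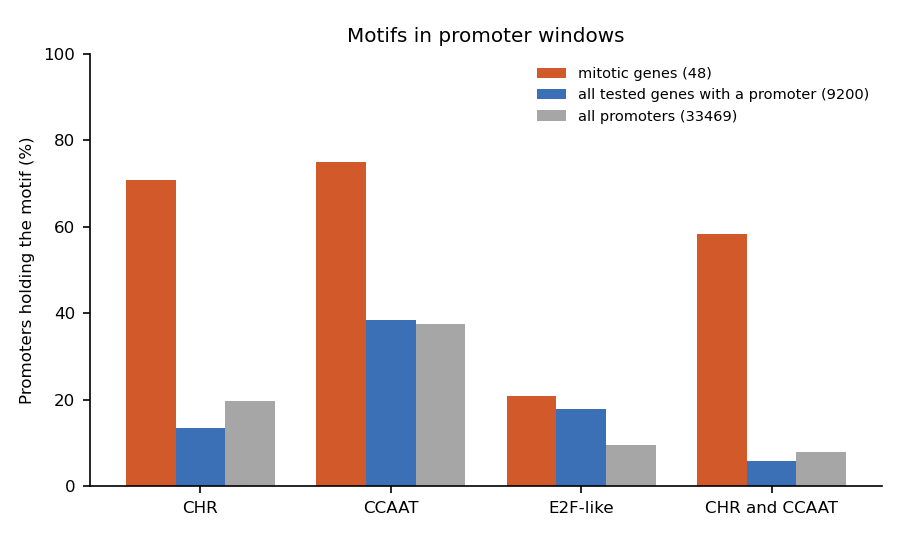
Share of promoter windows (y axis, percent) that hold CHR letters, CCAAT letters, E2F-like letters or both CHR and CCAAT, for 48 mitotic genes, 9200 tested genes and all 33469 windows. The mitotic genes lie at 70.8%, 75.0%, 20.8% and 58.3%, and the tested genes at 13.5%, 38.5%, 17.9% and 5.73%.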

How the data were processed

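RNA-seq was compared between 3 TNF-α and 3 TNF-α+EMO libraries of rat RA-FLS, grouped by their labels. Poly(A)-selected paired-end libraries were cleaned and aligned by the authors' provider, and the submitters' processing notes name FastQC, Trimmomatic, HISAT2 and the build Rnor_6.0. The counting program, annotation version and strand setting are not given in the sources used here. The authors deposited raw counts per gene, which were used for all results. The FPKM values that the authors deposited, scaled by gene length and depth, were not used. The deposited table of comparisons holds group means, log2 fold changes, p-values and adjusted p-values of the authors, and was not used.

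A gene was tested if 3 or more libraries held 10 or more counts (13614 genes), with edgeR 4.0.16 in R 4.3.3 (TMM scaling, robust quasi-likelihood F test, p-values adjusted after Benjamini-Hochberg over every gene in the test). A call needed both an adjusted p under 0.05 and a log2 fold change over 1 in size. The common biological coefficient of variation was 0.121. The standard error is the absolute log2 fold change divided by the square root of F. Normalized counts are counts scaled by effective library size to the mean over libraries. With 3 libraries against 3 an exact permutation test cannot give a p below 0.1, and the p-values therefore draw on the spread over all genes. The fits and calls were tried on simulated counts in which few genes changed, in both directions and by moderate folds. Many more genes changed in these data, and by larger folds. The simulation therefore does not bear on the scaling or on the calls in that setting. Intervals give counting error alone, because they were computed from counts summed over the 3 libraries of each group. They leave out the spread between libraries. Reads were also not tagged with molecular identifiers and are not independent, so that these intervals can be too narrow.

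The members, the lists of other cell division genes (kinetochore, spindle, condensin and cohesin, anaphase-promoting complex, mitotic entry, MuvB and E2F, S phase) and the fibroblast, leukocyte, endothelial and epithelial marker lists were chosen with earlier results of these data known. Values per library were given for the member of each role with the highest mean count, for those with the lowest and highest log2 fold change, and for those not called. In the other lists the gene with the highest mean count and the called genes with the lowest and highest log2 fold change were named. Other members and genes with values were chosen after their values were seen. Cenpq, Haus2, Arpp19, E2f1, Col1a2 and Pecam1 were not analysed here. The alternatives were DESeq2 1.42.0, other scalings, filters and thresholds, the replicate number as a block and leaving out each library. Leaving out libraries on the genes of the full fit was added after seeing the data. Promoter sequences came from RefSeq on GRCr8, by gene symbol, and Ccna2, Foxm1, Aurkb, Incenp, Tpx2, Racgap1 and Ube2c had no entry in the table used.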

Additional observations from a re-analysis of the deposited data

How the results depend on the processing

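The count of members called lower was 52 with DESeq2, with each other scaling and filter, and with every library left out on the genes of the full fit. Without a TNF-α library the filter of 10 counts in 3 libraries removed Cenpf, Cenpa and Spc25, and the count ranged from 49 to 52 over the libraries left out. The median log2 fold change of the members, -4.97, then ranged from -4.94 to -4.83, and from -5.00 to -4.91 on the genes of the full fit. Bub3 turned to -0.05 with library totals alone and to -0.04 without TNF-α replicate 2, and ranged from -0.04 to 0.12 over the libraries left out. Cenpk was at -0.65 without TNF-α+EMO replicate 3. Of 1036 refits of single members, 1034 kept their direction and side of the threshold.

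Same-numbered libraries showed little shared deviation from their group means (correlations 0.00949, -0.00667 and 0.0802). With 3 libraries in each group this cannot exclude that the samples were handled in pairs. With the replicate number as a block, 52 members were lower, 0 higher, and the median was -4.97.

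Fold thresholds set the counts of the other lists. With no fold threshold, 5642 of the 13614 genes tested were lower (41.4%) and 5366 were higher, against which the lists can be read. Of 16 condensin and cohesin genes 13 were lower and 1 higher. Of 17 genes of the anaphase-promoting complex 9 were lower and 6 higher. Of 11 mitotic entry regulators 6 were lower and 4 higher, and of 17 MuvB and E2F genes 5 were higher. With an absolute log2 fold change over 2, 2255 of all genes were lower (16.6%) and 809 higher. The counts at that threshold were 1 higher for the spindle list, 5 lower for condensin and cohesin, 1 lower and 0 higher for the anaphase-promoting complex, 0 higher for mitotic entry regulators, and 4 lower and 0 higher for MuvB and E2F genes. Without TNF-α replicate 3, on the genes of the full fit, 2 mitotic entry regulators were higher, against 1 over the other libraries left out. Counts under 100 in the TNF-α+EMO libraries limit the precision of 36 members.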
